A study of Mus musculus with 8 samples.

Results

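The cytosolic ribosomal protein genes were taken from the expression table by name: *Rpl* or *Rps* followed by a number, together with *Rpsa*, *Rplp0*, *Rplp1* and *Rplp2*, and without rows named as pseudogenes, the *Rps6k* kinases and *Rps12l1*. This gave 87 genes of the 52636 rows, 52 of the large and 35 of the small ribosomal subunit. The values came from CD4+ T cells of the spleen of mice carrying a Foxp3 eGFP reporter, aged 6 to 8 weeks. Regulatory T cells (Tregs, CD4+ Foxp3+) and conventional CD4+ T cells (Tconvs, CD4+ Foxp3-) were sorted from CD11c-Cd70tg;CD27+/- mice (CD70Tg), whose dendritic cells express the CD27 ligand CD70 from a CD11c promoter, and from CD27+/- mice without the transgene, used as controls. Every group was thus heterozygous for CD27. Each of the 4 groups had 2 libraries, prepared from 200000 sorted cells. Anti-CD25 was among the depleting antibodies for Tconvs but not for Tregs, the transgenic mice develop a spontaneous pathology from about the end of this age range on, and whether animals were pooled is not given in the sources used here.

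Ribosomal proteins coat the ribosomal RNAs of the small and the large subunit, and their mRNAs are among the most abundant of any cell. Lymphocytes that leave the resting state increase ribosome production, which depends on mTOR signalling and on Myc. Most ribosomal protein mRNAs, and those of several translation factors, begin with a cytosine followed by a run of pyrimidines, the 5′ terminal oligopyrimidine (TOP) tract, through which Larp1 and mTOR control their translation. The level of such an mRNA therefore does not give the rate at which the protein is made. Retrocopies of ribosomal protein mRNAs are scattered over the genome as processed pseudogenes.

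Each value is given per 20 M reads of its library, rounded up. In 6 libraries the spacing of the low values, which is what 1 read is worth, gave 1.91 to 9.55 M reads on genes, lowest in the Tregs. In control Tconv library 1 and CD70Tg Tconv library 2 the spacing was about 1 or below, so that these libraries were deeper and their number of reads is uncertain. The same pair stood apart from the other Tconv libraries in the share of reads on genes of the mitochondrial genome, with 0.27% and 0.22% against 0.68% and 0.71%. *Foxp3* lay between 1039 and 1497 in Tconvs and between 19769 and 21367 in Tregs and so followed the labels, and *Cd4* was at least 16100 in all 8 libraries. Sums over 4 markers of other cell types differed between the subsets. They were 841 to 1425 in Tconvs and 2242 to 2499 in Tregs for macrophages, monocytes and neutrophils, 32 to 106 and 129 to 211 for B and plasma cells, and 1104 to 1660 and 381 to 660 for CD8 T cells and NK cells. Not all markers moved alike. Between control Tregs and control Tconvs, 1 of the 3 tested myeloid markers was above 0, with log2 fold changes from −0.12 to 1.62. For CD8 T and NK cells it was also 1 of 3, from −2.97 to 0.83. In CD70Tg mice all 3 myeloid markers were above 0, and 0 of the 3 of CD8 T and NK cells. With CD70 the dendritic cell sum was 336 and 339 against 89 and 138 in control Tregs, and 146 and 286 against 59 and 84 in control Tconvs. The erythroid sum was 1841 and 1133 in CD70Tg and 269 and 711 in control Tregs, and 393 to 638 in Tconvs, and no marker was at 0 in all libraries. Their part in the results below was not tested.

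The stretch around the annotated start site is shown for 7 of the genes that the comparisons turn on, since this is where a TOP tract would lie. The sequences are RefSeq's (GRCm38.p6), with 35 bases before the annotated start and 15 from it on. Capitals mark the longest stretch of pyrimidines, at least 5 bases, read from a C within 10 bases of the start, and a run that began before this window, as in Rps27l, is in capitals only from the window on.
Rpl14 (chr9:120571482-120571531, plus strand): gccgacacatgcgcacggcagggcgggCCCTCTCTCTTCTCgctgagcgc
Rps27 (chr3:90213634-90213683, minus strand): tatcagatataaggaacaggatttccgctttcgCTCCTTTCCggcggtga
Rpl22l1 (chr3:28805473-28805522, plus strand): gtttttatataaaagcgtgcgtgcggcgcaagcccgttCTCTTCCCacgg
Rps27l (chr9:66946051-66946100, plus strand): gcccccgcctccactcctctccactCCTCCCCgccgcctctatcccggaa
Rplp0 (chr5:115559432-115559481, plus strand): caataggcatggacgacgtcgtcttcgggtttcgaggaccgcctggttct
Rpl22 (chr4:152325691-152325740, plus strand): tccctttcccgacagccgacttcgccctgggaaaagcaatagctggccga
Rpl7l1 (chr17:46782642-46782691, minus strand): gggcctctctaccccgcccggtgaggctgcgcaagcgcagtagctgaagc
A stretch of 5 or more read from the annotated base itself was found in 12 of the 63 members with a promoter in the table (19.0%), against 2.4% of the tested genes. Within 10 bases of it the shares were 57.1% and 32.7%, and for the mitochondrial ribosomal proteins 42.6%, with 0.0% at the start itself. The search ran on the gene's strand only, on annotated starts that may lie some bases from the true ones, and a match is a description of the letters.

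The members also had to be read against their copies. Of the 80 protein-coding members that were tested, 76 had at least 1 other annotated gene with 95% identity over 80% of the coding part, with a median of 5 such copies and 57 for *Rpl21*. Although their names fit the rule, *Rps3a2*, *Rps3a3*, *Rpl6l* and *Rps4l* are annotated as processed pseudogenes. *Rps3a2* (chromosome 14, 88123017 to 88123808, minus strand, 1 exon) was identical to the coding part of *Rps3a1* in 99.5% of aligned bases, *Rps3a3* (chromosome 13, 108670603 to 108671397, plus strand, 1 exon) in 98.9%, and *Rpl6l* (chromosome 10, 111125851 to 111126721, plus strand, 1 exon) in 98.7% to *Rpl6*. The 60 bases with the most differences are shown, with the bases that differ from the parent gene in capitals, first for *Rps3a1* (coding bases 201 to 260) and then for *Rpl6* (coding bases 458 to 517).
Rps3a1: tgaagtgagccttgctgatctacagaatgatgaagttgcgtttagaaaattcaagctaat
Rps3a2: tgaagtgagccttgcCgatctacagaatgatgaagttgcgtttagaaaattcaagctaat
Rps3a3: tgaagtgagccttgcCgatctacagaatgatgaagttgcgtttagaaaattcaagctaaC
Rpl6: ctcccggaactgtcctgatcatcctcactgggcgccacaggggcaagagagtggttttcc
Rpl6l: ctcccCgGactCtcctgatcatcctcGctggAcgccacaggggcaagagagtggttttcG
Even here *Rps3a2* differs from its parent by 1 base and *Rps3a3* by 2. How the counting treated reads that fit several places is not given in the sources used here, so the split of reads between a member and its copies is uncertain.

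Of the 87 members, 84 reached a value of 60 in at least 2 libraries and were tested. *Rpl10l*, a retrogene of *Rpl10*, was at 0 in all libraries, *Rpl3l*, the muscle form of *Rpl3*, lay between 0 and 6, and *Rpl39l*, known from testis, between 5 and 17. At 0, the value that 3 reads would give is 31.5 in the shallowest library. Among the 80 tested protein-coding members the mean over the 8 libraries ran from 802 for *Rps27l* to 52553 for *Rplp0*, with a median of 15962. Per kb of annotated exon, *Rplp1* stood first with 48176, followed by *Rps15* (33444), *Rplp0* (31678), *Rpl19* (26992) and *Rps3a1* (25137). *Rplp0* and *Rplp1* belong to the stalk of the large subunit, where elongation factors bind. The lowest per kb were the related genes *Rpl7l1* (605), *Rpl22l1* (981) and *Rps27l* (983), and then *Rpl35a* (2246) and *Rps15a* (2502), whose length counts every annotated exon and not 1 transcript. The neighbours *Rpl22l1* and *Rps27l* cannot be ordered on this scale, since their means differ by less than the spread of either gene over the libraries.

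Together, the members made up 7.57% and 10.02% of all reads in the control Tconv libraries and 9.12% and 5.39% in the CD70Tg Tconv libraries. In Tregs the share was 6.76% and 5.99% in control and 5.89% and 5.86% in CD70Tg mice. The Treg libraries thus lay close to each other, whereas the Tconv libraries spanned the whole range, and CD70Tg Tconv library 2 was the lowest of all. The lower library of each Tconv group was the deeper one with the lower mitochondrial share, and the higher one the shallower. The part of depth and of mitochondrial reads in this was not tested. As shares of all reads, these values cannot tell less ribosomal protein mRNA per cell from fewer cells that hold much of it.

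**Figure D1:**
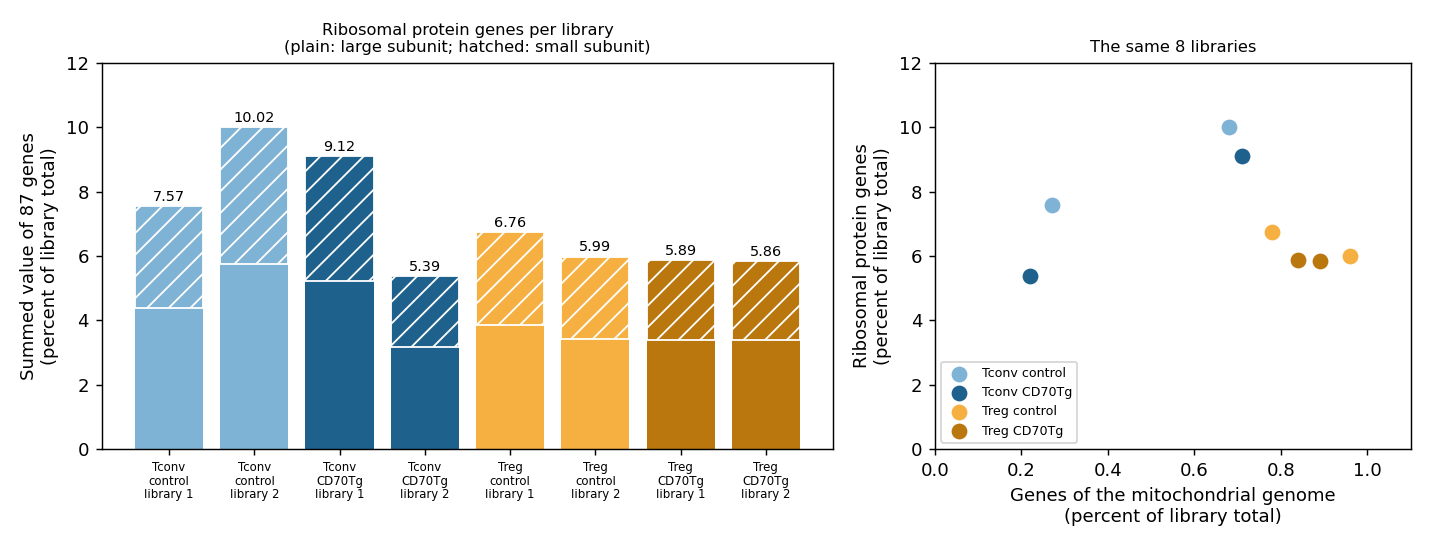
Left, summed value of the 87 ribosomal protein genes as percent of the library total, 1 bar per library, with large (plain) and small (hatched) subunit genes stacked. Right, the same sums against the percent of reads on mitochondrial genes, 1 point per library. The 4 Treg libraries sit between 5.86% and 6.76%, whereas the Tconv libraries run from 5.39% to 10.02%.

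The large and the small subunit moved together. Large subunit genes took 4.37% and 5.74% in control Tconvs, 5.23% and 3.17% in CD70Tg Tconvs, 3.86% and 3.41% in control Tregs, and 3.40% in each CD70Tg Treg library. The ratio of the small to the large subunit sum stayed between 0.698 and 0.754 over all 8 libraries.

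The same split was seen gene by gene. In CD70Tg Tconvs, 78 of the 80 protein-coding members were higher in library 1 than in library 2, by a median of 0.77 on the log2 scale (1.70-fold), while the median over all tested genes was −0.17. In control Tconvs, 79 of 80 were higher in library 2 than in library 1, by a median of 0.40, against −0.11 for all genes. In control Tregs, all 80 were higher in library 1, but only by a median of 0.18, and in CD70Tg Tregs the median was 0.00, with 40 of 80 higher in either library. The fit pooled the spread over all 4 groups, so that comparisons in Tregs and in Tconvs had the same median standard error over the members, 0.197 on the log2 scale. In fits on only the 4 libraries compared it was 0.0864 for CD70Tg against control in Tregs, with 4 members called lower (6.13% of all genes), and 0.218 in Tconvs, with 1 (1.76%).

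**Figure D2:**
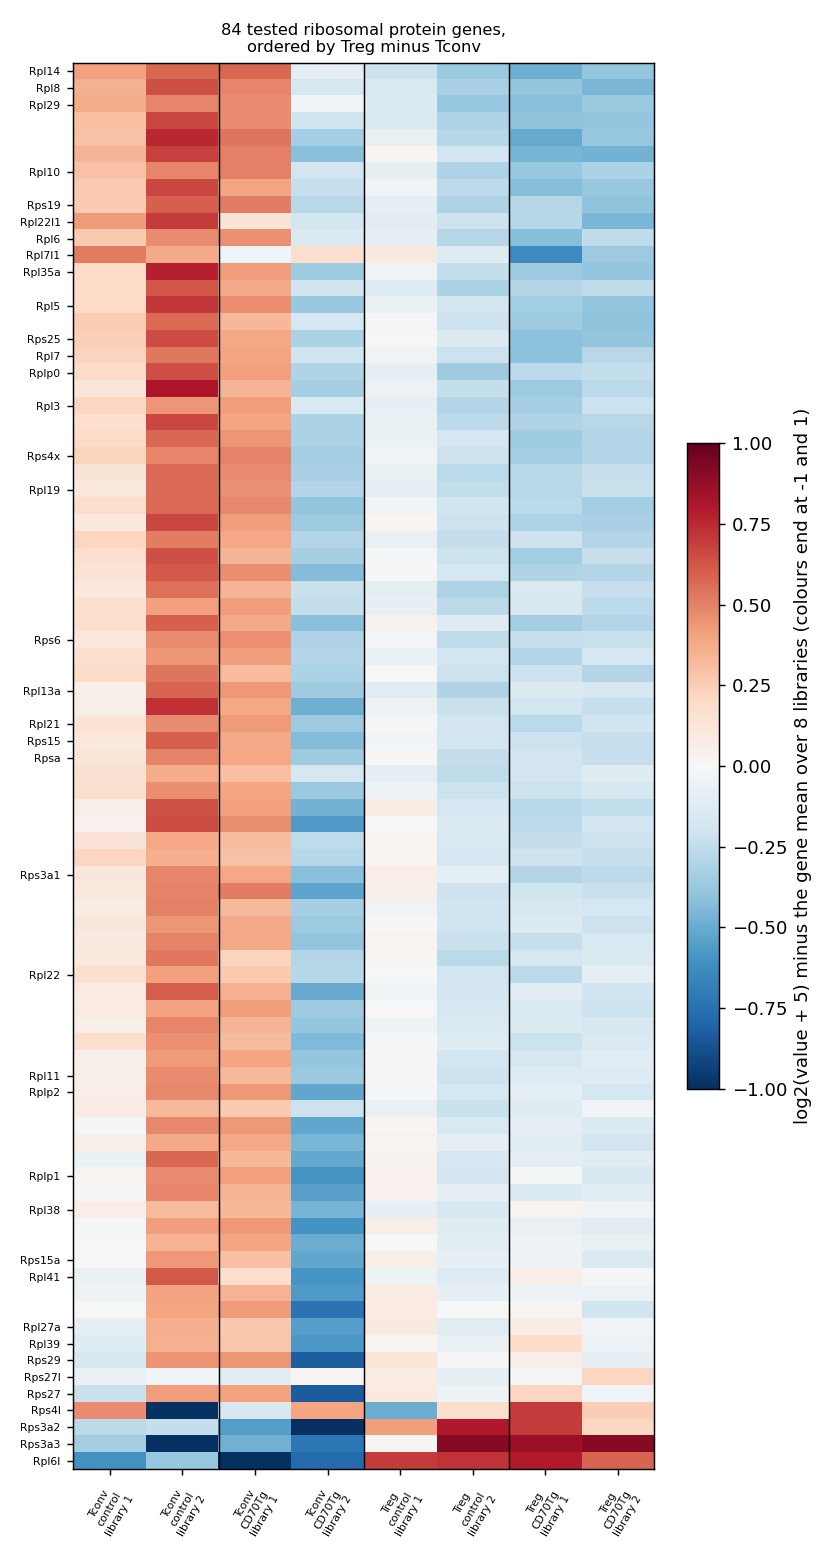
Each row is 1 of the 84 tested members, ordered by Treg minus Tconv, and each column 1 library. Colour gives log2(value + 5) minus the mean of that gene over the 8 libraries, and rows of genes named in the text carry their name. Control Tconv library 2 and CD70Tg Tconv library 1 are high over nearly all rows, CD70Tg Tconv library 2 is low, and the copies *Rps3a2*, *Rps3a3* and *Rpl6l* at the bottom run the other way.

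The first question was whether constitutive CD27 engagement altered these genes in Tregs. Of the 84 tested members, 0 were called higher in CD70Tg than in control Tregs (background over all tested genes, 3.94%) and 1 was called lower (background 3.46%), at an adjusted p-value under 0.05 in limma. The median log2 fold change was −0.10 over the members and −0.05 over all genes. Over the members it was −0.02 without control Treg library 1 and −0.18 without control Treg library 2. At an unadjusted p under 0.05 there was likewise 1 member, against 21.6% of all genes. Past a 2-fold change there were 0 in either direction (background 2.53% higher, 1.08% lower). The member called was *Rpl7l1* (chromosome 17, 46773907 to 46782672, minus strand, 7 exons), which is related to *Rpl7*. It had 2184 and 1883 in control and 1317 and 1599 in CD70Tg Tregs, and the groups did not overlap. Its log2 fold change was −0.48 (SE 0.13, limma adjusted p = 0.038). Over the alternatives and left-out libraries its adjusted p ranged from 0.0134 to 1.0, and it was no longer called without either control Treg library or without CD70Tg Treg library 1. At the other end of the protein-coding members was *Rpl41*, which encodes the shortest of them, with 12553 and 11892 in control and 13636 and 12848 in CD70Tg Tregs. Among the other extremes, *Rps25* had a log2 fold change of −0.33 and *Rpl38* of 0.11, and neither was called. For 33 of the 80 protein-coding members (41.2%) both CD70Tg libraries lay below both control libraries, against 31.2% of all tested genes, and for 2 they lay above (2.5% against 22.5%).

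In Tconvs, 0 members were called higher (background 6.82%) and 1 lower (background 1.99%), and 0 past a 2-fold change (background 4.07% higher, 0.577% lower). At an unadjusted p under 0.05 there were 11, against 19.1% of all genes. It was *Rpl22l1* (chromosome 3, 28805436 to 28807424, plus strand, 4 exons), the homologue of *Rpl22*, which is known for its part in T cell development. *Rpl22l1* had 2540 and 3062 in control and 2072 and 1647 in CD70Tg Tconvs, so that the groups did not overlap. The log2 fold change was −0.59 (SE 0.14, limma adjusted p = 0.011). The adjusted p ranged from 0.00302 to 0.91 over the alternatives, and the call was lost without control Tconv library 2 or CD70Tg Tconv library 2. In Tregs the same gene had 1738 and 1629 against 1547 and 1371 (log2 fold change −0.21, SE 0.14, adjusted p = 0.42). *Rpl7l1* had 2941 and 2675 in control against 2020 and 2303 in CD70Tg Tconvs (log2 fold change −0.38, SE 0.13, adjusted p = 0.10), again without overlap. *Rpl22l1* and *Rpl7l1* were the only members of the 80 whose CD70Tg Tconv libraries both lay below both controls (2.5% against 21.4% of all tested genes), and 0 lay above (23.7% of all tested genes).

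For the whole set the Tconv comparison turned on single libraries. The median over the members was −0.31, with 2 of 84 above 0, while the median of all genes was 0.01. Without CD70Tg Tconv library 1 the median was −0.69 and 76 members were called lower (2.82% of all genes), and without CD70Tg Tconv library 2 it was 0.07 and 0 were called (0.991% of all genes lower). Without control Tconv library 1 or 2, 5 and 0 members were called lower (0.905% and 1.15% of all genes). Taken in pairs chosen after the depths were seen, the shallower CD70Tg library lay below the shallower control by a median of −0.12 (11 of 80 above 0), and the deeper CD70Tg library below the deeper control by −0.50 (1 of 80 above 0). In the crossed pairs the medians were 0.26 and −0.89.

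A difference between the responses of Tregs and Tconvs was not detected for any member. With limma's interaction term 0 were called in either direction (background 0.195% higher, 0.827% lower, and past a 2-fold difference 0.148% and 0.733%), and 0 had an unadjusted p under 0.05, against 10.7% of all genes. The median difference of the log2 fold changes was 0.22, and 83 of 84 members were above 0, but without CD70Tg Tconv library 2 the median was −0.18. *Rpl41* had the largest value, 0.60 (SE 0.30, adjusted p = 0.51). Its 4 Tconv values were 12416 and 19884 in control and 14663 and 8645 in CD70Tg mice.

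**Figure D3:**
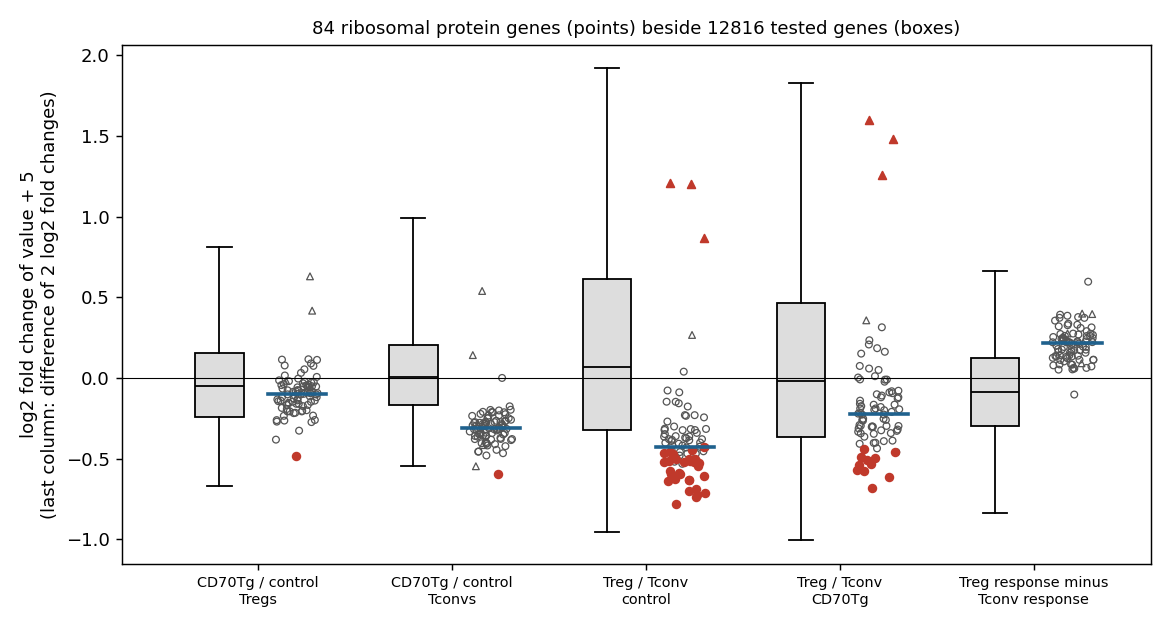
Log2 fold change of value + 5 for the 84 tested members (circles, triangles for the 4 annotated pseudogenes, filled red where the adjusted p was under 0.05, blue line at their median) beside all 12816 tested genes (boxes from the 25th to the 75th percentile, whiskers from the 5th to the 95th). The last column gives the difference of 2 log2 fold changes. In both comparisons of Tregs with Tconvs the red circles lie below 0 and the 3 red triangles above.

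The subsets were then compared at baseline. In control mice 32 members were lower in Tregs than in Tconvs (38.1%, background 18.4%) and 3 were higher (3.57%, background 27.5%). The median log2 fold change was −0.43 for the members and 0.07 for all genes. For the members it was −0.24 without control Tconv library 2 and −0.61 without control Tconv library 1. All 32 that fell encode proteins, 25 of the 48 tested large subunit members and 7 of the 32 of the small subunit. The greatest change was that of *Rpl14* (chromosome 9, 120571444 to 120574654, plus strand, 6 exons), a large subunit protein, with 19807 and 22150 in control Tconvs and 12859 and 11542 in control Tregs (log2 fold change −0.78, SE 0.17, limma adjusted p = 0.0013). *Rpl8*, a protein of the large subunit core, had 35428 and 43313 against 24985 and 22164 (−0.74, SE 0.18, adjusted p = 0.0032). For both genes the groups did not overlap.

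*Rpl22l1* was also lower in control Tregs (1738 and 1629) than in control Tconvs (2540 and 3062), by −0.73 on the log2 scale (SE 0.14, adjusted p = 0.00052), as was *Rpl29*, with 9919 and 8385 against 14080 and 15295 (−0.69, SE 0.15, adjusted p = 0.0013). *Rpl29* has 25 near-identical annotated copies. *Rplp0*, the anchor of the stalk, had 47898 and 39900 against 58234 and 79568 (−0.64, SE 0.21, adjusted p = 0.019), while its partners *Rplp1* and *Rplp2* gave −0.32 and −0.36 and were not called. Of other well-studied members, *Rpl5* fell by 0.58 (adjusted p = 0.034) and *Rps19*, mutated in Diamond-Blackfan anemia, by 0.63 (adjusted p = 0.014), whereas *Rpl11* (−0.37), *Rps6* (−0.43), *Rpsa* (−0.42) and *Rpl13a* (−0.52) were not called. *Rpl5* and *Rpl11* bind Mdm2, and *Rps6* is the substrate of the S6 kinases.

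In CD70Tg mice 11 members were lower in Tregs (13.1%, background 20.1%) and 3 higher (3.57%, background 22.6%), with a median of −0.22 over the members and −0.02 over all genes. The 11 were all among the 32 of control mice, of which they were 34.4%. *Rpl14* again led, with 22231 and 13957 in Tconvs and 10606 and 11402 in Tregs (−0.68, SE 0.17, adjusted p = 0.0041), followed by *Rpl29* (15080 and 10666 against 8129 and 8433, −0.61, SE 0.15, adjusted p = 0.0033) and *Rpl8* (38824 and 24603 against 21148 and 20232, −0.58, SE 0.18, adjusted p = 0.016). *Rpl7l1* had 2020 and 2303 against 1317 and 1599 (−0.57, SE 0.13, adjusted p = 0.0029). No member passed a 2-fold decrease in either genotype (background 4.43% in control and 4.94% in CD70Tg mice), while 2 and 3 members passed a 2-fold increase (background 14.7% and 12.3%). At an unadjusted p under 0.05 there were 51 members in control mice, against 52.9% of all genes, and 19 in CD70Tg mice, against 50.5%. Over all 8 libraries on the deposited scale, only 2 of the 80 protein-coding members, *Rpl14* and *Rpl29*, had all 4 Treg libraries below all 4 Tconv libraries (2.5%, against 20.2% of all tested genes), and 0 had them above (24.5% of all tested genes).

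These counts also moved with the libraries and the scaling. In control mice 5 members (6.0%) were lower without control Tconv library 2 (14.4% of all genes), 5 without control Treg library 2 (10.2%), and 53 (63.1%) without control Tconv library 1 (11.5%). Leaving out CD70Tg Tconv library 1 or 2, which enter this comparison through the shared estimate of the spread alone, gave 64 and 63 (20.3% and 20.2% of all genes). In CD70Tg mice, without CD70Tg Tconv library 1, 3 were lower (21.1% of all genes) and 15 higher (17.2%), and the median was 0.12. Without CD70Tg Tconv library 2, 68 were lower (12.9% of all genes), and without CD70Tg Treg library 1 or 2, 2 and 3 (13.0% and 15.6%). With TMM factors 20 members were lower in control mice (23.8%, against 25.1% of all genes) and 3 higher, so that the members were no longer called lower more often than all genes were. The median log2 fold change over the members was then −0.52, against −0.02 over all genes. Their median standard error was 0.261, against 0.197 in the fit without factors. In CD70Tg mice 3 were lower with these factors (3.6%, against 22.0%) and 3 higher.

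The 3 members that rose in Tregs are all annotated as processed pseudogenes. *Rps3a2* had 131 and 134 in control Tconvs and 214 and 281 in control Tregs (log2 fold change 0.86, SE 0.29, adjusted p = 0.022), *Rps3a3* 52 and 28 against 68 and 132 (1.21, SE 0.40, adjusted p = 0.021), and *Rpl6l* 76 and 90 against 195 and 198 (1.20, SE 0.29, adjusted p = 0.0030). All Tconv values of *Rps3a3* lay under the minimum of 60, so that it was tested through its Treg values alone and its direction is no independent result. In CD70Tg mice the same 3 rose by 1.26, 1.48 and 1.60, with adjusted p = 0.0025, 0.0072 and 0.00038. Of their parent genes, *Rpl6* was lower in control Tregs, with 18667 and 16222 against 23625 and 27394 in control Tconvs (−0.55, adjusted p = 0.014), and *Rps3a1* was not called, with 25150 and 22505 against 26033 and 33715. *Rps4l*, named after *Rps4x*, lay between 17 and 84 in all libraries and was not called.

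**Figure D4:**
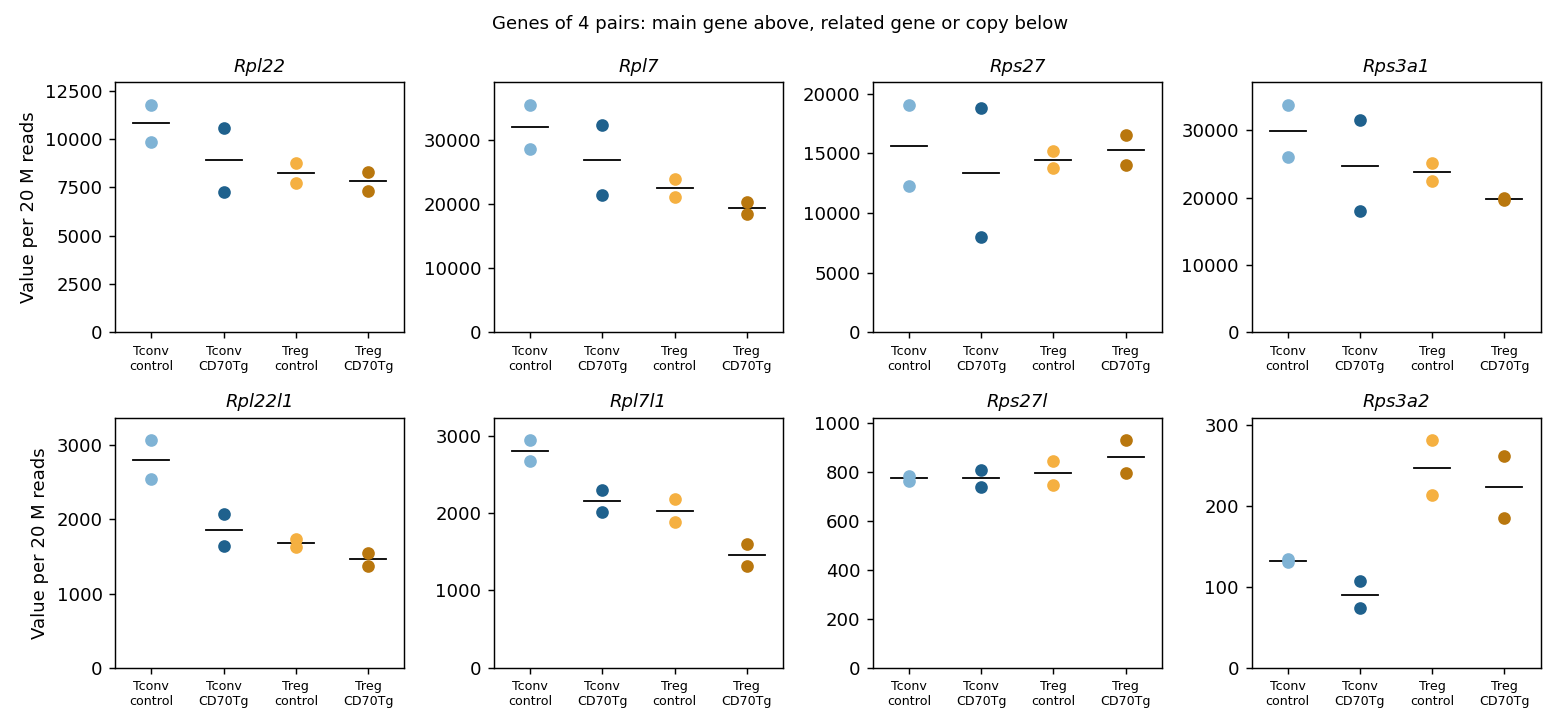
Values per 20 M reads of *Rpl22*, *Rpl7*, *Rps27* and *Rps3a1* (top) and of the related genes *Rpl22l1*, *Rpl7l1* and *Rps27l* and the copy *Rps3a2* (bottom), 1 point per library and a line at the group mean. *Rpl22l1* and *Rpl7l1* are highest in control Tconvs, *Rps27l* stays between 741 and 930, and *Rps3a2* is higher in all 4 Treg libraries than in any Tconv library.

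The rows named as pseudogenes, which the rule left out, are given as a description. Of 276 such rows 76 were tested, and 38 were higher in control Tregs (50.0%, background 27.5%) and 66 in CD70Tg Tregs (86.8%, background 22.6%), with 0 lower in either. Of the 76, 35 reached the minimum of 60 in fewer than 2 Tconv libraries and were tested through the Treg libraries, so that the direction of these counts was in part set by the minimum. The sum of all 276, to which no minimum applied, was 0.064% and 0.072% of reads in control Tconvs, 0.056% and 0.039% in CD70Tg Tconvs, 0.090% and 0.107% in control Tregs, and 0.112% and 0.104% in CD70Tg Tregs. RNAs that stay in the nucleus were higher in the same libraries. *Malat1* lay between 397 and 1438 in the Tconv and between 7415 and 12505 in the Treg libraries, *Neat1* between 409 and 1018 and between 1510 and 2571, and *Xist* between 779 and 1726 and between 7058 and 10640. Rows of ribosomal RNA took 0.90% to 1.96% of reads in Tregs and 0.54% to 0.70% in Tconvs, and genes of the mitochondrial genome 0.78% to 0.96% and 0.22% to 0.71%. Sequencing depth was lower in every Treg library than in any Tconv library, and the Tregs were purified by another depletion. The sums of myeloid and B cell markers were higher in every Treg library, although in control mice only 1 of the 3 tested myeloid markers was above 0. The part of these in the subset comparisons was not tested.

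Since the Tconv libraries differed in the sum of all members, each member was also given as its share of that sum, which shows whether the mix of ribosomal protein mRNAs differed. On this scale 30 of the 80 protein-coding members had no overlap between the 4 Treg and the 4 Tconv libraries. The share was higher in Tregs for 19 (23.8%, background over all tested genes on the same scale, 21.3%) and lower for 11 (13.8%, background 3.29%). Dividing by the sum of the members centres the members near 0 and moves the median of all genes to 0.51 in control and 0.22 in CD70Tg mice on the log2 scale, so these backgrounds are set by the scaling and nothing is read from them here. This scale was chosen after the values were seen. With CD70, both libraries lay above both controls for 27 of the 80 in Tregs (33.8%, background 30.0%) and for 5 in Tconvs (6.25%, background 14.8%), and below for 24 in Tregs (30.0%, background 18.3%) and 11 in Tconvs (13.8%, background 2.22%). In the limma fit on values scaled to the sum of the members, 0 protein-coding members were called between the subsets in either genotype, and only the 3 copies were.

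The lowest relative share in Tregs was that of *Rpl14*, at 1.31%, 1.11%, 1.22% and 1.29% of the sum in Tconvs and 0.949%, 0.966%, 0.898% and 0.965% in Tregs, a log2 difference of −0.38. *Rpl8* and *Rpl29* followed with −0.31 and −0.30. The highest without overlap was *Rps27*, a small subunit protein with a zinc finger, at 0.807%, 0.951%, 1.03% and 0.739% in Tconvs and 1.12%, 1.15%, 1.40% and 1.19% in Tregs, a log2 difference of 0.47. *Rps29*, *Rpl39* and *Rpl27a* followed with 0.40, 0.38 and 0.36. *Rps27l* had 0.45 but overlapped, since CD70Tg Tconv library 2 reached 0.075%.

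The genes with a higher share in Tregs were shorter in the median. Their coding part had a median length of 354 bases, against 615 bases for the 11 with a lower share and 457 bases for all 80. Across the 80 genes, which share libraries and are not independent, Spearman's correlation of the log2 difference with the coding length was −0.48 and Pearson's −0.44. Between the replicates of a group the same correlation, taken as the library with more ribosomal protein mRNA minus the other, was −0.30 in control Tconvs, −0.40 in CD70Tg Tconvs and 0.35 in control Tregs. In CD70Tg Tregs, whose libraries did not differ in their median, library 1 minus library 2 gave −0.35. These signs are not oriented alike, since Tregs minus Tconvs is in the median the subset with less ribosomal protein mRNA minus the one with more. Turned the same way, the subset value had the opposite sign to that of the Tconv replicates and the same sign as that of the control Tregs. With the number of annotated copies the correlation for Tregs minus Tconvs was 0.01.

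**Figure D5:**
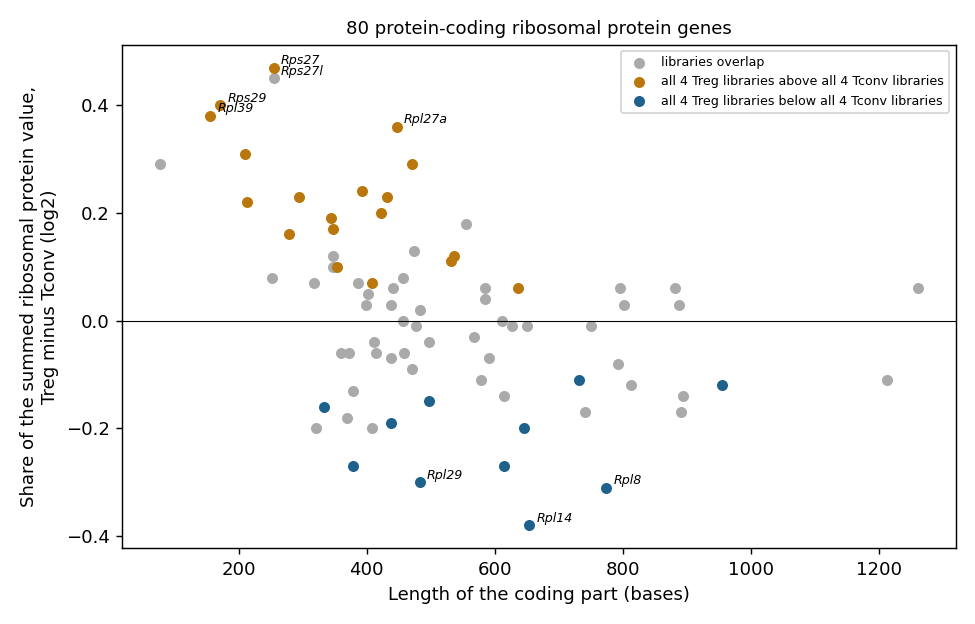
Length of the coding part in bases against the log2 difference, Treg minus Tconv, in the share of the summed ribosomal protein value, 1 point for each of the 80 protein-coding members. Orange and blue points are the 19 and 11 members whose 4 Treg libraries lie all above or all below the 4 Tconv libraries, and most orange points lie to the left of the blue ones.

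Relative to its homologue, *Rpl22l1* amounted to 25.76 and 26.05 per 100 *Rpl22* in control Tconvs, 19.60 and 22.71 in CD70Tg Tconvs, 19.79 and 21.10 in control Tregs, and 21.09 and 16.50 in CD70Tg Tregs. The 2 control Tconv libraries were above the other 6, although they differed between themselves in the level of both genes. *Rpl7l1* per 100 *Rpl7* was 10.29 and 7.56, 6.25 and 10.77, 9.13 and 8.91, and 7.13 and 7.89 in the same order, and the groups overlapped in Tconvs. *Rps27l*, a target of p53, stayed between 741 and 930 in all libraries while *Rps27* ranged from 7987 to 19055. Their ratio therefore mainly followed *Rps27*, from 3.94 per 100 in CD70Tg Tconv library 1 to 10.13 in library 2.

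Other genes of the pathway showed where the members were alike and where they were not. A list of 4 genes outside the naming rule held *Fau*, which makes a ribosomal protein fused to a ubiquitin-like protein, *Rack1*, which binds the small subunit, and *Rpl36al*. Of the 4, 3 were lower in control Tregs than in control Tconvs (background 18.4%). They were *Rpl36al* by −0.96 (adjusted p = 3e-05), *Rack1* by −0.71 (adjusted p = 0.0054) and *Fau* by −0.56 (adjusted p = 0.026). In CD70Tg mice *Rpl36al* (−0.76) and *Rack1* (−0.53) were lower (background 20.1%). With CD70, 0 of the 4 were called in either subset, where over all genes 3.94% were higher and 3.46% lower in Tregs and 6.82% and 1.99% in Tconvs, so that 4 genes are too few to read a difference from.

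Of 20 translation factors and other genes known for TOP mRNAs, 13 were lower in control Tregs (background 18.4%) and 12 in CD70Tg Tregs (background 20.1%), and 0 were called with CD70 in either subset (background 3.94% higher and 3.46% lower in Tregs, 6.82% and 1.99% in Tconvs). *Eef1a1*, the factor that brings aminoacyl-tRNA to the ribosome, had 118234 and 165953 in control Tconvs and 161938 and 84721 in CD70Tg Tconvs, thus with the order of the ribosomal protein sums. In Tregs it lay between 128912 and 146142. *Tpt1* had 41240 and 59576, and 57445 and 28072 in Tconvs, and between 40496 and 44991 in Tregs. *Eef2*, which moves the ribosome along, spread less, from 72720 to 107810 over the 8 libraries.

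The 77 mitochondrial ribosomal proteins did not share the swing of the cytosolic ones between Tconv libraries. Their sum was 75338 and 73878 in control Tconvs, 62442 and 77191 in CD70Tg Tconvs, 53248 and 51764 in control Tregs, and 49204 and 52036 in CD70Tg Tregs. Of these genes 47 were lower and 1 higher in control Tregs (61.0%, background 18.4%, and 1.3%, background 27.5%), and 40 were lower in CD70Tg Tregs (51.9%, background 20.1%). With CD70, 0 were called in either subset (background 3.94% higher and 3.46% lower in Tregs, 6.82% and 1.99% in Tconvs).

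Ribosome assembly factors held more calls with CD70 than the members did. In Tregs 11 of 47 were lower in CD70Tg mice (23.4%, background 3.46%) and 0 higher, with a median of −0.33 against −0.05 over all genes. Sums of dendritic, erythroid, B and plasma, and CD8 T and NK cell markers were above both controls in both CD70Tg Treg libraries. The last had 660 and 642 against 381 and 453, and that of B and plasma cells 211 and 192 against 143 and 129. Of the 3 tested CD8 T and NK cell markers 2 were above 0, with log2 fold changes from −2.57 to 2.37. The sum of Treg markers was lower, with 54604 and 55031 against 63193 and 62341. Log2 fold changes of the 4 markers ran from −0.56 to 0.09. The highest was that of *Foxp3*, with 21367 and 21080 in CD70Tg against 19769 and 20102 in control Tregs. The part of these in the calls was not tested. In Tconvs 3 of 47 were lower (6.38%, background 1.99%), *Nop10*, *Nop58* and *Nhp2*, which are components of small nucleolar ribonucleoproteins and were named after their values were seen. In the same comparison the CD8 T and NK cell sum was 1638 and 1660 against 1123 and 1104. Of its 3 tested markers 2 were above 0, with log2 fold changes from −2.45 to 4.38. The myeloid sum was 841 and 1109 against 1423 and 1425, and that of B and plasma cells 32 and 41 against 106 and 76. The part of these sums was not tested either. As a member of both sets of calls, *Nop10* was lower in both subsets, by −0.52 in Tregs and −0.53 in Tconvs. The difference between the responses was called for 0 of the 47. *Ncl* and *Npm1*, abundant nucleolar proteins, were not called with CD70 in either subset, with −0.19 and −0.30 in Tregs.

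Among genes that control ribosomal protein synthesis, *Myc* was lower with CD70 in both subsets. It had 3247 and 3008 in control and 2383 and 2181 in CD70Tg Tregs (log2 fold change −0.45, adjusted p = 0.025), and 2181 and 2030 in control and 1473 in each CD70Tg Tconv library (−0.51, adjusted p = 0.0084). At the same time *Myc* was higher in Tregs than in Tconvs, by 0.57 in control and 0.63 in CD70Tg mice (adjusted p = 0.00085 and 0.00045). *Larp1* and *Mtor* were likewise higher in Tregs in control mice, by 0.67 and 0.91 (adjusted p = 0.00028 and 0.00051), and neither was called with CD70. In this list of 16, 2 were lower with CD70 in Tregs (12.5%, background 3.46%), *Myc* and its partner *Max*, the latter by −0.37 and named after its value was seen, and 1 in Tconvs (6.25%, background 1.99%), which was *Myc*. In control mice 6 of the 16 were higher in Tregs (37.5%, background 27.5%) and 2 lower (12.5%, background 18.4%).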

How the data were processed

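RNA-seq was performed on sorted Tregs and Tconvs of CD70Tg and control mice. The authors trimmed the reads with Trimmomatic 0.36, mapped them to mm10 with STAR 2.5.3 and counted them per gene with HTSeq 0.9.1, and deposited score values, that is counts scaled to 20 M per library and rounded up, which are not raw counts. Table totals lay between 19963628 and 20164600. The columns name the controls KO, the labels name them WT, and the paper gives CD27+/-. All 8 columns were used. Libraries 1 and 2 of a group are numbered here by column order, which pairs no samples.

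Values were fitted with limma 3.58.1 (R 4.3.3) on log2(value + 5), with a trend in the prior variance, 1 coefficient for each of the 4 groups, and adjustment by Benjamini-Hochberg over 12816 genes with at least 60 in 2 libraries. All adjusted p-values are limma's, and fold changes on this scale understate those of low genes. Rows with clone names (4131) were not used, because in most libraries few of their low values lay on the spacing of that library. Of names on more than 1 row (97), the row with the largest total kept the name. Lengths and positions came from GENCODE M21, which holds 99.6% of the identifiers. The fit was tested on simulated data in which genes varied independently. Such data hold no shared swing of the members between libraries, so the test does not cover it. P-values measure the spread between samples, which may be technical, since nothing says that replicates came from separate animals. Members and gene lists were chosen with earlier results of these data known. Named were members past both thresholds (adjusted p and 2-fold) in any contrast, the 4 largest and 4 smallest fold changes of each, the 5 highest and 5 lowest per kb, related genes and copies, the stalk, *Rpl5*, *Rpl11*, *Rps6*, *Rps19*, *Rpsa* and *Rpl13a*, and the other genes given by name. *Rps29*, *Rpl27a*, *Rpl21*, *Nop10*, *Nop58*, *Nhp2* and *Max* lie outside that rule and were named after their values were seen. A few genes covered by it are not reported here and enter only the counts. Alternatives tried were dropping the minimum value, pseudocounts of 1 and 20, TMM or median-of-ratios factors, library totals without the members, the 4 compared libraries alone, a 2-fold threshold, limma-voom on reads recovered from the spacing, clone-named rows kept, each library left out, and other totals for the summed level. Scaling to the sum of the members was added after seeing the data.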

Additional observations from a re-analysis of the deposited data

How the results depend on the processing

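With CD70 in Tregs, the 1 member called lower became 0 with a 2-fold threshold, with no minimum value, with scaling to the sum of the members and in limma-voom on recovered reads, and 4 with only the 4 libraries compared. Leaving out single libraries gave 0 to 1. With CD70 in Tconvs, the 1 lower became 0 with a 2-fold threshold, no minimum value or scaling to the sum of the members, and 2 with TMM factors, median-of-ratios factors or limma-voom. Leaving out single libraries gave 0 to 76, and medians from −0.69 to 0.07. Scaling to the sum of the members, which sets that sum equal in all libraries, gave a median of 0.00 there and of 0.02 between subsets in control mice.

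Between subsets in control mice, the 32 lower became 0 with a 2-fold threshold or scaling to the sum of the members, 3 with no minimum value (3.5%, against 7.03% of all genes), 20 with TMM factors (23.8% against 25.1%), 16 with median-of-ratios factors (19.0% against 24.1%) and 54 with only the 4 libraries compared (64.3% against 20.8%). Among these settings, the members were called lower more often than all genes only with the 4 libraries compared. With a 2-fold threshold and with scaling to the member sum 4.43% and 1.56% of all genes were lower. The excess stayed in limma-voom (31.0% against 17.4%) and with library totals without the members (35.7% against 21.2%). It also stayed with pseudocounts of 1 and 20 (36.9% against 18.1%, 39.3% against 18.6%) and with clone-named rows kept (36.9% against 18.1%). With TMM and median-of-ratios factors the median over the members was −0.52 and −0.50. The 3 higher became 1 with no minimum value. Leaving out single libraries gave 5 to 64 lower and 1 to 3 higher. Without control Tconv library 1 there were 53 lower, and without CD70Tg Tconv library 2 there were 63. In CD70Tg mice, the 11 lower became 0 with a 2-fold threshold or scaling to the sum of the members, 2 with no minimum value (7.53% of all genes), 3 with TMM or median-of-ratios factors (22.0% for each) and 4 in limma-voom (15.3%). Leaving out single libraries gave 2 to 68 lower, 3 to 15 higher and medians from −0.59 to 0.12. For the difference of the responses, it gave 0 to 1 higher and medians from −0.18 to 0.57. The causes were not tested, and scaling to the member sum cannot test them, since it centres the members near 0.

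Of 467 settings over 26 gene results, 403 kept direction and side of the threshold, 59 lost the call, 5 gained one and 0 reversed. No paired analysis was possible because the table's columns carry no replicate numbers. With 2 libraries per group, the spread between Tconv libraries enters every comparison through the pooled estimate.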
